A study of Mus musculus with 4 samples.

Results

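The genes described here are 37 genes of ribosome biogenesis and polyamine synthesis, chosen by a list of gene symbols that names nucleolar processing factors, RNA polymerase I and the polyamine enzymes, and all 37 were found among the 24411 symbols of the deposited tables. RNA was sequenced from B220-positive B cells sorted from the marrow of mouse tibiae and femurs, with 2 libraries from mice labelled wildtype and 2 from mice whose label gives Arid5b overexpression; Arid5b binds DNA through an ARID domain. The strain, age, number of animals and the construct that drives Arid5b are not given in the sources used here, and no treatment is named for either group. Libraries are called wildtype 1 and 2 and overexpression-labelled 1 and 2. Nothing in the labels says that libraries of a group came from separate mice, so p-values measure the spread between these libraries.

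Ribosomes are built in the nucleolus, where RNA polymerase I transcribes the ribosomal DNA into a long precursor. Small nucleolar ribonucleoproteins (snoRNPs) guide methylation and pseudouridylation of that precursor, and large sets of helicases, scaffold proteins and GTPases cut it, fold it and assemble it into the small and large subunits. Polyamines are small cations made from ornithine: Odc1 makes putrescine, Srm adds an aminopropyl group to give spermidine, Sms adds another to give spermine, and Amd1 supplies the donor of that group. Many genes of both pathways are known targets of MYC and are raised in growing lymphocytes.

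The libraries held between 14196665 and 20356404 reads assigned to genes, recovered from the deposited log2 values, so counting error is small for abundant genes. Values below are normalised reads, which are reads divided by a library size factor scaled to a mean of 1. Arid5b had 2655 and 3034 normalised reads in wildtype, 60713 in overexpression-labelled 1 and 2429 in overexpression-labelled 2. It was thus high in overexpression-labelled 1 (log2 difference 4.41, SE 0.131, limma adjusted p = 3.98e-11) and did not pass the test in overexpression-labelled 2 (log2 difference -0.22, SE 0.131, limma adjusted p = 0.439), against the label of that library. Each overexpression-labelled library was therefore also set alone against the wildtype pair. A single library has no spread of its own, so the spread of the wildtype pair stands in for it, and such a test compares libraries, not genotypes. B lineage genes were present in every library but at different levels in overexpression-labelled 1. There Ptprc, which encodes B220 (5936 normalised reads against 31676 to 34203 in the other 3 libraries), Cd79a (9420 against 21693 to 24303) and Cd22 (3130 against 5653 to 7624) fell, and Cd79b (6388 against 2879 to 3379), Pax5 (5115 against 2572 to 2642) and Ebf1 (14860 against 10224 to 10565) rose (limma against wildtype). The early and mature B cell markers differed widely, with summed early B markers (Il7r, Rag1, Rag2, Igll1, Vpreb1, Dntt) at 58379 normalised reads in overexpression-labelled 1 and 45.6 to 156 in the other 3 libraries, and summed mature B markers (Ms4a1, Fcer2a, Cr2, Cd74, H2-Aa, H2-Ab1) at 3685 against 384210 to 415110. Of the 6 early B markers, Igll1 and Vpreb1 had 0 reads in the other 3 libraries, and Dntt had 4 reads in overexpression-labelled 1 and 10 to 23 in the others. Neutrophil markers also differed, at 114, 1763, 2113 and 25907 normalised reads in wildtype 1 and 2 and overexpression-labelled 1 and 2. Over all genes tested 34.5% fell in overexpression-labelled 1 (limma). Of the markers of other cells, 7 of 8 T and NK cell genes (summed normalised reads 34.5, against 918.3 and 904.6 in wildtype), 5 of 6 plasmacytoid dendritic cell genes (3211 against 12606 and 10332), 4 of 6 monocyte and macrophage genes (594.3 against 1378 and 1481) and 3 of 4 plasma cell genes (1885 against 5233 and 5598) fell there (limma). The part of these cells in the results below was not tested. The markers are sums over bulk RNA, in which the number of cells of a type and the RNA per cell cannot be told apart.

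Of the 37 genes, 36 passed the filter on low values. Wildtype 1 and 2 were close to each other in these genes: their deposited log2 values differed by a median of 0.114 over the 36 genes, and by 0.201 over all 12617 genes tested. The widest gap in these genes was that of Nop14 (0.467), a small-subunit processing factor. Over all genes the widest gap was that of Xist, the RNA of the inactive X chromosome, with 24 reads in wildtype 1, 77255 in wildtype 2 and 68540 and 132008 in the overexpression-labelled libraries. Ddx3y, on the Y chromosome, had 3260 reads in wildtype 1 and 0 or 1 in the other 3 libraries. Kdm5d, Uty and Eif2s3y, also on the Y chromosome, had 1670, 1357 and 1080 reads in wildtype 1 and 0 in the other 3 libraries. The sexes of the mice are not given in the labels, but by these reads wildtype 1 is male and the other 3 libraries are female. The wildtype pair thus came from different mice, and the spread between them includes a difference of sex. The part of sex in the differences below was not tested. The median difference of the 36 genes in overexpression-labelled 1 was 0.59 against wildtype 2 alone, 0.49 against wildtype 1 alone and 0.57 against both. Dkc1 and Sms lie on the X chromosome. Reads of the 37 genes made up 0.482% and 0.478% of all reads in wildtype 1 and 2, 0.75% in overexpression-labelled 1 and 0.478% in overexpression-labelled 2. The share was thus raised in overexpression-labelled 1 and the same to 3 digits in overexpression-labelled 2 and wildtype 2. Ncl and Npm1 together gave 43.8% and 43.5% of the reads of the 37 genes in wildtype, 56.2% in overexpression-labelled 1 and 44.2% in overexpression-labelled 2.

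**Figure D1:**
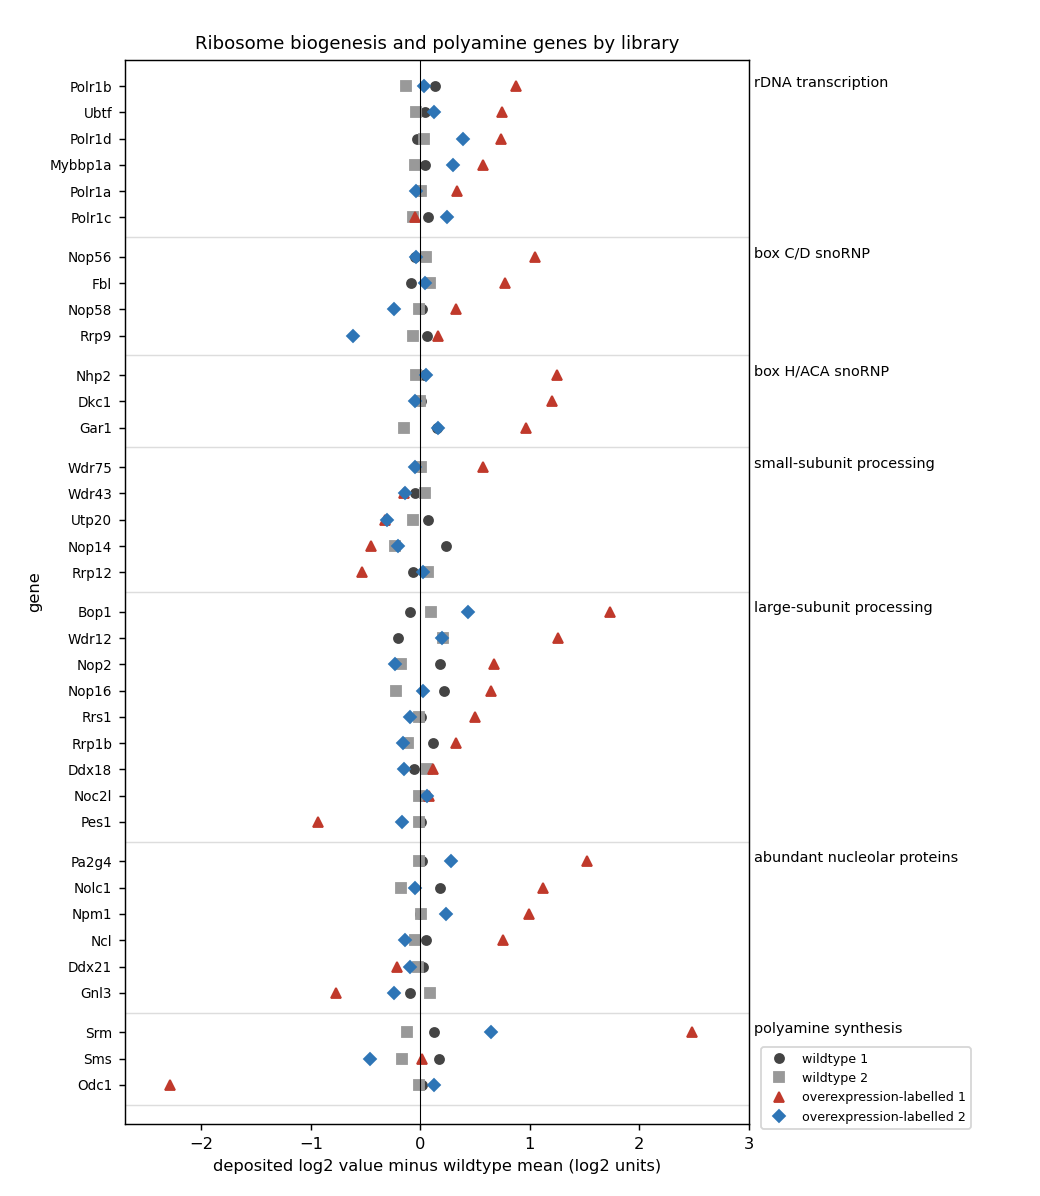
Deposited log2 value of each gene in each library minus its wildtype mean, in log2 units; each row is a gene, grouped by role, and each symbol is a library (circle and square for wildtype 1 and 2, triangle and diamond for overexpression-labelled 1 and 2). Overexpression-labelled 1 is the highest library in 26 of the 36 genes tested and the lowest in 8, with Srm at 2.48 and Odc1 at -2.29. This standing was not counted over all genes, so no share stands beside it.

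The labels set 2 overexpression-labelled against 2 wildtype libraries. No ribosome biogenesis or polyamine gene passed the test. By limma 0 of 36 passed at an adjusted p under 0.05 and 0 had an unadjusted p under 0.05, where 0% of all 12617 genes passed and 280 had an unadjusted p under 0.05. A second fit, limma-voom, called 0 of the 36 as well, with 0 at an unadjusted p under 0.05. The median difference was 0.24 log2 units over the 36 genes and -0.08 over all genes tested. Both overexpression-labelled libraries lay above both wildtype libraries in 10 of the 36 genes (Pa2g4, Npm1, Nhp2, Mybbp1a, Ubtf, Bop1, Gar1, Srm, Noc2l and Polr1d), beside 19.6% of all genes, and below them in 5 (Ddx21, Utp20, Pes1, Gnl3 and Wdr43), beside 23% of all genes. The spread within the overexpression-labelled group was wide in the genes with the largest differences: Srm averaged 9.16 ± 0.171 (SD, n = 2) on the deposited log2 scale for the wildtype pair, against 10.72 ± 1.3 (SD, n = 2) for the other pair (difference 1.56, SE 0.692, limma adjusted p = 0.726).

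In overexpression-labelled 1 alone most of these genes were higher than in wildtype, and a minority, led by Odc1, were lower. Of the 36 genes, 20 rose, where 26.6% of all genes tested rose, and 4 fell, where 34.5% of all genes fell (limma, adjusted p under 0.05 over all genes). Counting only differences of at least 1 log2 unit, 8 genes rose (Srm, Bop1, Pa2g4, Wdr12, Nhp2, Dkc1, Nolc1 and Nop56), beside 18% of all genes, and 1 fell (Odc1), beside 25.4%. The median difference was 0.57 over the 36 genes and -0.15 over all genes tested. The deposited scale sets the middle of all genes a little low in this library; scaling by library totals without the ribosomal RNA precursor Rn45s moved the median of all genes to 0.02 and that of the 36 genes to 0.77, a gap of 0.75 against 0.72 on the deposited scale. With no filter on low values only 6 of the 37 genes passed: Npm1, Pa2g4, Dkc1 and Nhp2 rose and Odc1 and Pes1 fell. The other 18 calls given below for this library were lost there, with an unchanged size of the difference.

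In overexpression-labelled 2 none of the 36 genes passed the test. Over all genes 0.65% rose and 0.761% fell in this library. At an unadjusted p under 0.05, 3 of the 36 genes differed by limma, beside 2039 of all 12617 genes tested. By limma-voom, which also called 0 of the 36, 4 differed, beside 2305 of all genes. The smallest limma adjusted p was 0.176, that of Srm. The median difference was -0.04 over the 36 genes and 0.01 over all genes.

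The difference between the 2 overexpression-labelled libraries was tested directly. Of the 36 genes, 17 were higher in overexpression-labelled 1 than in overexpression-labelled 2, beside 22.4% of all genes tested, and 3 were lower (Odc1, Pes1 and Gnl3), beside 30.1% (limma). The median difference was 0.61 over the 36 genes and -0.14 over all genes tested. With no filter on low values 3 genes passed (Dkc1 and Pa2g4 higher, Odc1 lower), so the other calls between these libraries given below were lost there; with totals without Rn45s 25 were higher and 2 lower. This comparison and that with wildtype share overexpression-labelled 1.

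**Figure D2:**
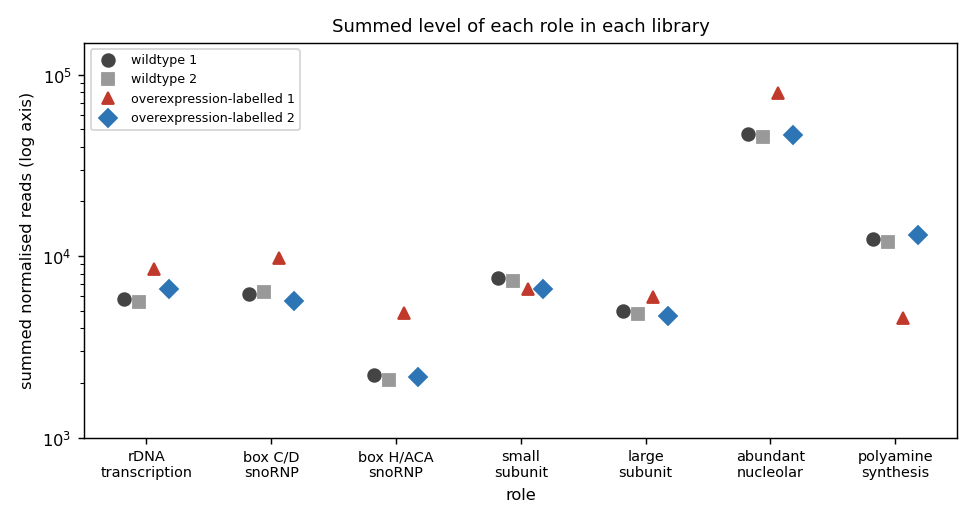
Summed normalised reads (log axis) of the genes of each role in each library, with a symbol per library. Overexpression-labelled 1 lies above the other 3 libraries in the rDNA transcription, box C/D, box H/ACA, large-subunit and abundant nucleolar roles. It lies below them in the polyamine role, where Odc1 gives most of the wildtype reads. In the small-subunit role overexpression-labelled 1 (6571) and overexpression-labelled 2 (6592) are almost level, below both wildtype libraries.

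The 6 genes of rDNA transcription were the first role. Summed over the role, normalised reads were 5776 and 5579 in wildtype, 8526 in overexpression-labelled 1 and 6572 in overexpression-labelled 2. In overexpression-labelled 1, 4 of 6 rose (limma) and none fell, where 26.6% of all genes rose and 34.5% fell. Polr1b (chr2:129100995-129126594), the second-largest subunit of RNA polymerase I, had 282 and 230.2 normalised reads in wildtype, 489.9 in overexpression-labelled 1 and 262.2 in overexpression-labelled 2. It was high in overexpression-labelled 1 only, and overexpression-labelled 2 lay between the wildtype libraries. Its difference in overexpression-labelled 1 was 0.88 (SE 0.243, limma adjusted p = 0.00745), the largest of the role. Ubtf, the factor that opens ribosomal DNA for transcription, rose by 0.74, and Polr1d, a subunit shared with RNA polymerase III, rose by 0.74. Mybbp1a, a nucleolar protein that binds the MYB transcription factor, had 1679 and 1572 normalised reads in wildtype, 2429 in overexpression-labelled 1 and 2009 in overexpression-labelled 2. Both overexpression-labelled libraries lay above wildtype in this gene, and overexpression-labelled 1 passed (0.57, SE 0.144, limma adjusted p = 0.00418) while overexpression-labelled 2 did not (0.30, limma adjusted p = 0.326). The difference between those libraries did not pass either (0.27, SE 0.167, limma adjusted p = 0.188). Polr1c, the other subunit shared with RNA polymerase III, had 373.5 and 336 normalised reads in wildtype, 341.6 in overexpression-labelled 1 and 425.2 in overexpression-labelled 2. The groups overlapped, and its difference in overexpression-labelled 1 was -0.05 (SE 0.222, limma adjusted p = 0.859). The largest subunit Polr1a had a difference of 0.33 (limma adjusted p = 0.0762), which passed when size factors were recomputed (adjusted p = 0.0286).

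The ribosomal RNA precursor itself, listed as Rn45s, took 30.18% and 25.69% of all reads in wildtype, 30.52% in overexpression-labelled 1 and 28.31% in overexpression-labelled 2. Its difference was -0.01 in overexpression-labelled 1 (SE 0.247, limma adjusted p = 0.964) and 0.04 in overexpression-labelled 2 (limma adjusted p = 0.963). The wildtype libraries lay on both sides of the overexpression-labelled ones on the normalised scale. How ribosomal RNA was removed before sequencing is not given in the sources used here, so this level is that of the libraries.

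The box C/D snoRNP genes encode the methylation machinery of ribosomal RNA. Summed over the 4 genes, normalised reads were 6155 and 6340 in wildtype, 9711 in overexpression-labelled 1 and 5652 in overexpression-labelled 2. In overexpression-labelled 1, 3 rose and none fell (limma), where 26.6% of all genes rose and 34.5% fell. Nop56 (chr2:130274430-130279313), a core scaffold, had 1633 and 1759 normalised reads in wildtype, 3523 in overexpression-labelled 1 and 1644 in overexpression-labelled 2. The level in overexpression-labelled 1 was 2.08-fold that of wildtype (log2 difference 1.04, SE 0.143, limma adjusted p = 4.3e-05). Fbl, the methyltransferase, rose by 0.77. Nop58, the partner scaffold of Nop56, had 3358 and 3298 normalised reads in wildtype, 4179 in overexpression-labelled 1 and 2821 in overexpression-labelled 2. It thus rose less than Nop56 in value, by 0.33 (SE 0.13, limma adjusted p = 0.0442), and the difference between the 2 overexpression-labelled libraries was 0.56 (limma adjusted p = 0.00714). Rrp9, the protein specific to the U3 snoRNP, had 167.7 and 151.4 normalised reads in wildtype, 180.7 in overexpression-labelled 1 and 95.6 in overexpression-labelled 2. It did not pass in either library (0.16, limma adjusted p = 0.662, and -0.61, limma adjusted p = 0.337).

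Several of these genes carry guide snoRNAs in their introns, a feature that the list did not use. In GENCODE vM21 (GRCm38), 7 of the 36 tested genes (19.4%) hold at least 1 annotated snoRNA gene within their span on the same strand: Nop56 holds 5, Nop58 holds 4, Ncl, Gnl3 and Wdr43 hold 3 each, and Dkc1 and Odc1 hold 1 each. Of the other tested coding genes 1.63% do. The hosts went different ways in overexpression-labelled 1, where Nop56, Nop58, Ncl and Dkc1 rose, Gnl3 and Odc1 fell, and Wdr43 did not pass. The snoRNAs themselves were not analysed here. A guide snoRNA of each of 3 hosts is shown, a host that rose strongly, the host with the most reads and a host that fell, from the GENCODE vM21 transcripts with box C (TGATGA) and box D (CTGA) in capitals.
Snord110 (in Nop56, chr2:130275506-130275573, plus strand): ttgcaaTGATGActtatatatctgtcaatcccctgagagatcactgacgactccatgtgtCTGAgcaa
Snord82 (in Ncl, chr1:86356261-86356330, minus strand): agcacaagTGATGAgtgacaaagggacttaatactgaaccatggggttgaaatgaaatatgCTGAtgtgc
Snord69 (in Gnl3, chr14:31014287-31014366, minus strand): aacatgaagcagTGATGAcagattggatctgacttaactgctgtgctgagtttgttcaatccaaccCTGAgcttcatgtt

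The box H/ACA snoRNP genes, which encode the pseudouridylation machinery that telomerase RNA also uses, rose together in overexpression-labelled 1. All 3 passed (limma), where 26.6% of all genes rose. Their summed normalised reads were 2206 and 2070 in wildtype, 4855 in overexpression-labelled 1 and 2167 in overexpression-labelled 2. Dkc1 (chrX:75095854-75109777), the pseudouridine synthase, had 1263 and 1259 normalised reads in wildtype, 2930 in overexpression-labelled 1 and 1218 in overexpression-labelled 2. Wildtype and overexpression-labelled 2 were within a narrow range, and overexpression-labelled 1 was 2.32-fold higher than wildtype (log2 difference 1.20, SE 0.149, limma adjusted p = 1.8e-05). Nhp2 had 390.4 and 369.2 normalised reads in wildtype, 935.9 in overexpression-labelled 1 and 393.7 in overexpression-labelled 2. Its difference in overexpression-labelled 1 was 1.24 (SE 0.202, limma adjusted p = 0.000173). Gar1 had 551.8 and 441.9 normalised reads in wildtype, 989.1 in overexpression-labelled 1 and 555 in overexpression-labelled 2, a difference of 0.96 in overexpression-labelled 1 (SE 0.202, limma adjusted p = 0.00118). Each of the 3 genes was also higher in overexpression-labelled 1 than in overexpression-labelled 2 (differences 0.80 to 1.25, limma).

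The small-subunit processing genes did not follow the snoRNP genes. Of 5 genes 1 rose and 1 fell in overexpression-labelled 1 (limma), where 26.6% of all genes rose and 34.5% fell. The median was -0.32, beside -0.15 over all genes tested. Wdr75, a component of the early processome that binds the precursor first, had 692.9 and 700.3 normalised reads in wildtype, 1050 in overexpression-labelled 1 and 673.4 in overexpression-labelled 2. It rose by 0.57 in overexpression-labelled 1 (SE 0.176, limma adjusted p = 0.0129). Wdr43, of the same early complex and the gene with the most reads of the role, had 3126 and 3330 normalised reads in wildtype, 2911 in overexpression-labelled 1 and 2925 in overexpression-labelled 2. Both overexpression-labelled libraries lay slightly below wildtype, and neither passed (-0.15, limma adjusted p = 0.352, and -0.14, limma adjusted p = 0.653). Rrp12, which takes part in late maturation and export, had 502.2 and 553.9 normalised reads in wildtype, 355.1 in overexpression-labelled 1 and 537.5 in overexpression-labelled 2. It fell by 0.54 in overexpression-labelled 1 (SE 0.204, limma adjusted p = 0.0361), a call lost by limma-voom (adjusted p = 0.0618), with recomputed size factors (0.0762) and with totals without Rn45s (0.157). Utp20 (-0.32) and Nop14 (-0.45) did not pass, though Nop14 did with the 5 CPM filter (limma adjusted p = 0.0496).

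The large-subunit processing genes rose in part and divided within a single complex. In overexpression-labelled 1, 4 of 9 rose and 1 fell (limma), where 26.6% of all genes rose and 34.5% fell. Normalised reads summed to 4965 and 4815 in wildtype, 5968 in overexpression-labelled 1 and 4651 in overexpression-labelled 2. Bop1, Wdr12 and Pes1 encode the PeBoW complex, in which Bop1 bridges the other two. Bop1 (chr15:76452989-76477277) had 138.4 and 162.5 normalised reads in wildtype, 558.8 in overexpression-labelled 1 and 212.2 in overexpression-labelled 2. Both overexpression-labelled libraries lay above wildtype, overexpression-labelled 1 at 3.71-fold (log2 difference 1.73, SE 0.262, limma adjusted p = 9.5e-05) and overexpression-labelled 2 at 1.41-fold (log2 difference 0.44, limma adjusted p = 0.448). Wdr12 had 201.4 and 276.9 normalised reads in wildtype, 603.7 in overexpression-labelled 1 and 275.3 in overexpression-labelled 2. It was 2.52-fold higher in overexpression-labelled 1 (log2 difference 1.26, SE 0.253, limma adjusted p = 0.000873), and overexpression-labelled 2 lay within the wildtype range. Pes1 (chr11:3963975-3980004) went the other way, with 1089 and 1076 normalised reads in wildtype, 554.6 in overexpression-labelled 1 and 958.3 in overexpression-labelled 2. It was 1.95-fold lower in overexpression-labelled 1 (log2 difference -0.93, SE 0.169, limma adjusted p = 0.00041) and also lower there than in overexpression-labelled 2 (-0.76, SE 0.195, limma adjusted p = 0.00564).

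**Figure D3:**
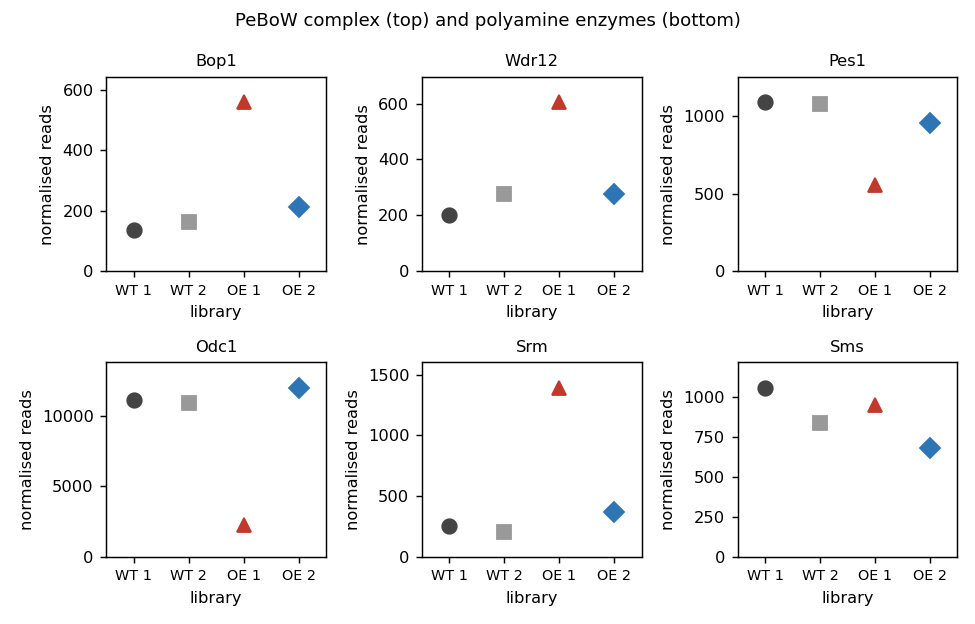
Normalised reads (linear axis from 0) in each library for the PeBoW genes Bop1, Wdr12 and Pes1 in the top row and the polyamine enzymes Odc1, Srm and Sms in the bottom row; each point is a library, WT wildtype and OE overexpression-labelled. In overexpression-labelled 1 Bop1, Wdr12 and Srm are the highest and Pes1 and Odc1 the lowest of the 4 libraries, whereas Sms lies inside the wildtype range.

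Of the other large-subunit genes, Nop2, a ribosomal RNA methyltransferase, rose by 0.67 (limma adjusted p = 0.0221) and Nop16 by 0.65 (limma adjusted p = 0.0396) in overexpression-labelled 1. The call of Nop16 was lost on log2 of normalised reads plus 0.5 (adjusted p = 0.0573). Noc2l, which pairs with other NOC proteins on the large-subunit precursor and had the most reads of the role, had 911.2 and 894.8 normalised reads in wildtype, 952.6 in overexpression-labelled 1 and 939.9 in overexpression-labelled 2, and it did not pass in overexpression-labelled 1 (0.08, SE 0.167, limma adjusted p = 0.712). The helicase Ddx18 (0.12), Rrp1b (0.33) and Rrs1 (0.50) did not pass either. With totals without Rn45s Rrs1 (limma adjusted p = 0.0292) and Rrp1b (0.0474) passed, and Rrs1 also with recomputed size factors (0.0463).

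The abundant nucleolar proteins gave the largest part of the reads and mostly rose. In overexpression-labelled 1, 4 of 6 rose and 1 fell (limma), where 26.6% of all genes rose and 34.5% fell. Ncl (chr1:86344719-86359400), nucleolin, which binds the precursor and ribosomal DNA, had 22591 and 21144 normalised reads in wildtype, 36867 in overexpression-labelled 1 and 19781 in overexpression-labelled 2. It rose by 0.75 in overexpression-labelled 1 (SE 0.119, limma adjusted p = 0.000134), and overexpression-labelled 2 was slightly under wildtype. Npm1, nucleophosmin, a chaperone of the granular component, rose by 0.99 (limma adjusted p = 1.03e-05), and Nolc1, a chaperone of snoRNPs, rose by 1.12 (limma adjusted p = 0.000132). Pa2g4 (chr10:128557766-128565987), a growth-linked protein that binds nascent ribosomes, had 1742 and 1713 normalised reads in wildtype, 5026 in overexpression-labelled 1 and 2103 in overexpression-labelled 2. It was 2.91-fold higher in overexpression-labelled 1 (log2 difference 1.53, SE 0.137, limma adjusted p = 9.51e-07), and overexpression-labelled 2 was also above wildtype without passing (0.28, limma adjusted p = 0.34). Gnl3, the nucleolar GTPase nucleostemin, known from stem and dividing cells, had 2246 and 2551 normalised reads in wildtype, 1388 in overexpression-labelled 1 and 2024 in overexpression-labelled 2. It fell by 0.77 on the log2 scale in overexpression-labelled 1 (SE 0.148, limma adjusted p = 0.000604). The helicase Ddx21 (-0.21) did not pass.

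The polyamine enzymes went in opposite directions along the pathway in overexpression-labelled 1. Odc1 (chr12:17544794-17551505), ornithine decarboxylase, the first and rate-limiting step, had 11160 and 10938 normalised reads in wildtype, 2238 in overexpression-labelled 1 and 12008.5 in overexpression-labelled 2. The wildtype libraries and overexpression-labelled 2 were close together, and overexpression-labelled 1 was 4.94-fold lower than wildtype (log2 difference -2.29, SE 0.12, limma adjusted p = 5.84e-09) and lower than overexpression-labelled 2 (-2.41, SE 0.138, limma adjusted p = 2.11e-08). Srm (chr4:148591503-148594993), spermidine synthase, had 249.3 and 206.8 normalised reads in wildtype, 1393 in overexpression-labelled 1 and 369.1 in overexpression-labelled 2. It was 6.11-fold higher in overexpression-labelled 1 (log2 difference 2.48, SE 0.22, limma adjusted p = 8.33e-07). Overexpression-labelled 2 lay above both wildtype libraries at 1.62-fold, without passing (0.64, SE 0.22, limma adjusted p = 0.176), and below overexpression-labelled 1 (difference 1.84, SE 0.254, limma adjusted p = 6.08e-05). Sms (chrX:157443855-157492287), spermine synthase, had 1058 and 834.5 normalised reads in wildtype, 950.5 in overexpression-labelled 1 and 677.8 in overexpression-labelled 2. It lay inside the wildtype range in overexpression-labelled 1 (0.02, SE 0.188, limma adjusted p = 0.948) and below it in overexpression-labelled 2 (-0.46, limma adjusted p = 0.258). GENCODE vM21 also lists a copy of Sms under a symbol that begins with Sms-ps. Reads that match both may have been left out of the authors' counting, so the level of Sms carries that uncertainty. There were 44.8 and 52.9 reads of Odc1 for each read of Srm in wildtype, 1.61 in overexpression-labelled 1 and 32.5 in overexpression-labelled 2. Amd1, S-adenosylmethionine decarboxylase, was the gene that failed the filter, with 4 and 1 reads in wildtype and 0 in both overexpression-labelled libraries. Its near-identical copy Amd2 had 0 reads in all 4 libraries. Reads that match both copies may have been left out of the authors' counting, so the level of Amd1 is uncertain and no direction is given.

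Promoter windows from RefSeq (GRCm38.p6, 250 bases before to 50 after the start, 300 in all) were found for 31 of the 37 genes, with 41 windows. The E-box CACGTG, the site that MYC and related factors can bind, was searched on both strands and stood in windows of 6 of the 31 genes (19.4%), Nop2, Utp20, Pes1, Mybbp1a, Wdr43 and Sms, and in windows of 11.7% of the tested genes with a window. Of these 6 genes, Nop2 and Mybbp1a rose, Pes1 fell and the other 3 did not pass in overexpression-labelled 1. The GC box GGGCGG, on both strands, stood in windows of 25 of the 31 genes (80.7%) and of 66.8% of the tested genes. The ETS-type motif CCGGAAG, on both strands, stood in windows of 7 (22.6%) and of 20.4%. Counted per window of 300 bases, the E-box stood in 14.6% of these genes' windows, 9.94% of those of tested genes and 7.15% of all windows. For the GC box these shares were 73.2%, 60.6% and 35.7%, and for the ETS-type motif 21.95%, 17.6% and 8.86%. Matches of different motifs can share end bases. Matches are letters only and say nothing on binding. Upstream sequences of 3 genes that rose at least 1 log2 unit (Pa2g4, Nop56, Dkc1), of the gene with an E-box upstream of its start that rose (Nop2) and of the gene with the largest fall (Odc1) are shown, chosen after their values were seen, as the bases of the RefSeq window that lie before both its start site and the gene's annotated span in GENCODE vM21, with E-boxes and GC boxes of either strand in capitals.
Pa2g4 (chr10:128565988-128566184, minus strand): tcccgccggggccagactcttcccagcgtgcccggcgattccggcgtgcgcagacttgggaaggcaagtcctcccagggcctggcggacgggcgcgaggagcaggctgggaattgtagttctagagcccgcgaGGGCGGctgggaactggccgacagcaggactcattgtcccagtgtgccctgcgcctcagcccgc
Nop56 (chr2:130274162-130274411, plus strand): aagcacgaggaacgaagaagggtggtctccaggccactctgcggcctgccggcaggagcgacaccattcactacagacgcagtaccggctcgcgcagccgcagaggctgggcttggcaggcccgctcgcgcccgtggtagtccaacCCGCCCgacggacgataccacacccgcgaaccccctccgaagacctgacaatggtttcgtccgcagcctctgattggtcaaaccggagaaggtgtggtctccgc
Dkc1 (chrX:75095604-75095853, plus strand): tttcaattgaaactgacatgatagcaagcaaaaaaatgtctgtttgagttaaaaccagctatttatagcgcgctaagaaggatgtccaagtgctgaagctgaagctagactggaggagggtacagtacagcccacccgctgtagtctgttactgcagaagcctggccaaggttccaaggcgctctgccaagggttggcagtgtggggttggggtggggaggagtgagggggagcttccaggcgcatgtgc
Nop2 (chr6:125131633-125131882, plus strand): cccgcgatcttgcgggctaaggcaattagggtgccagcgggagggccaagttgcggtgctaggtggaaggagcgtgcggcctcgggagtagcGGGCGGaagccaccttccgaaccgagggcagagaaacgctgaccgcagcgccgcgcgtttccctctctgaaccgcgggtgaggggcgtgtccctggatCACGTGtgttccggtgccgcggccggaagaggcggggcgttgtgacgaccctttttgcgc
Odc1 (chr12:17544623-17544793, plus strand): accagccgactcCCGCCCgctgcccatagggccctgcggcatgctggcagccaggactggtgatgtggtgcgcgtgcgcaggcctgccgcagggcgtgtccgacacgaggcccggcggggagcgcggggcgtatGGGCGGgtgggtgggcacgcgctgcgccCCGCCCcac
The E-box of Nop2 begins at position -60 from the start site. The stretch shown for Dkc1 has neither motif in 250 bases, and that for Odc1 has 3 GC boxes in 171 bases.

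Other genes of the pathways, taken from lists of factors outside the 37, were mixed in overexpression-labelled 1. Of 136 tested, 46 rose and 33 fell (limma), where 26.6% of all genes rose and 34.5% fell, with a median of 0.21, and 1 rose in overexpression-labelled 2. Of 15 other RNA polymerase I factors, 5 rose and 3 fell. Polr2h and Cd3eap, both subunits of the enzyme, rose by 4.47-fold and 4.86-fold, and the subunits Twistnb (log2 difference -1.01) and Znrd1 (-0.98) fell. Of 45 other small-subunit factors, 16 rose and 10 fell, with rises of Utp11l (2.70) and Imp3 (1.63), which belong to the processome, and falls of Rcl1 (-1.58) and Tsr1 (-1.05), which act in cleavage and late maturation. Utp11l was also the gene that rose in overexpression-labelled 2 (1.25, limma adjusted p = 0.044), a call lost in 6 of the alternatives, for example when only the libraries compared entered the fit (adjusted p = 0.0717). Of 45 other large-subunit factors, 12 rose and 14 fell, shares near those over all genes. Lyar, a nucleolar growth regulator, rose by 4.26-fold and Rsl1d1 by 2.87-fold, and Rpf1 (-1.39), a processing factor, and Spata5 (-1.38), an ATPase that recycles a late factor, fell. The median of this list was -0.10, and it turned to 0.08 with totals without Rn45s. Of 17 other H/ACA factors and RNA exosome genes, 9 rose and 0 fell, led by the exosome subunits Exosc5 (1.52) and Exosc7 (1.43). With no filter on low values 0 rose and 2 fell of the RNA polymerase I list, 0 and 3 of the small-subunit list, 4 and 4 of the large-subunit list, and 0 and 0 of the H/ACA and exosome list, and 3 rose and 1 fell of the polyamine list described next. The calls of Polr2h, Cd3eap, Znrd1, Utp11l, Imp3, Tsr1, Rpf1, Exosc5 and Exosc7 were lost with no filter on low values.

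Around the polyamine enzymes, 5 of 15 genes of control, breakdown and use rose and 6 fell in overexpression-labelled 1 (limma). Over all genes tested 26.6% rose and 34.5% fell. Mtap, which salvages the by-product of spermidine and spermine synthesis, had 316.7 and 284.3 normalised reads in wildtype, 1979 in overexpression-labelled 1 and 263 in overexpression-labelled 2, a rise of 2.62 in overexpression-labelled 1 (SE 0.206, limma adjusted p = 2.65e-07). It was high in that library alone. Oaz2, an antizyme that marks ornithine decarboxylase for breakdown, rose by 2.10 (SE 0.338, limma adjusted p = 0.000156), from 104.7 and 62.8 normalised reads in wildtype to 434.5, a call lost with no filter. Oaz1, the main antizyme, had 1 to 4 reads per library and failed the filter. The cause of this low count was not tested, so the level of Oaz1 is uncertain. Arg1, which makes ornithine, fell by 1.96 on the log2 scale (SE 0.325, limma adjusted p = 0.000204), a call also lost with no filter. Eif5a2, a copy of the factor that carries the spermidine-derived residue hypusine, had 234 and 144 reads in wildtype, 0 in overexpression-labelled 1 and 97 in overexpression-labelled 2. It was at least 61.4-fold lower in overexpression-labelled 1 than in wildtype, against a floor of 3 reads in that library that covers counting error only.

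**Figure D4:**
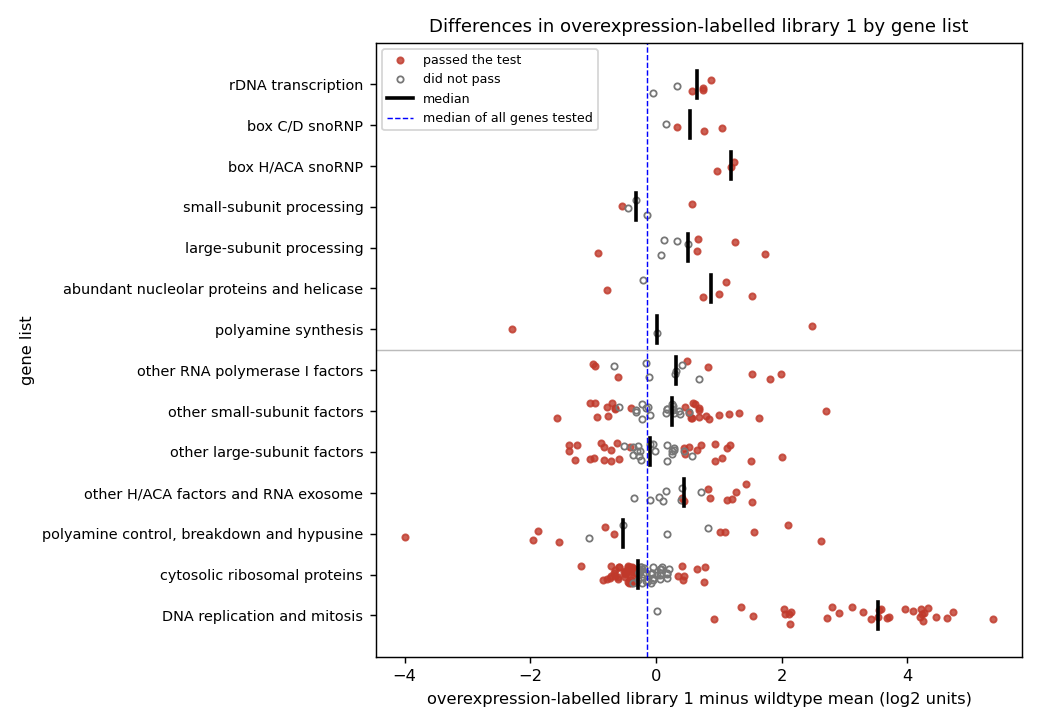
Log2 difference of each gene between overexpression-labelled 1 and the wildtype mean, by gene list; filled points passed the test, open points did not, bars are list medians and the dashed line is the median of all genes tested (-0.15). The lists above the grey line are the 36 genes described here, of which all but the small-subunit and polyamine roles have medians of 0.50 or more, and the DNA replication and mitosis list lies far to the right (median 3.54).

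Ribosomal protein genes, which encode the ribosome itself, and cell division genes were set beside these lists in overexpression-labelled 1. Of 77 cytosolic ribosomal protein genes, 7 rose and 38 fell (limma), with a median of -0.29, against 20 rises and 4 falls and a median of 0.57 for the 36 genes described here. The excess of falls depended on the scale and the filter, with 1 rise and 0 falls with no filter on low values, 8 rises and 28 falls with recomputed size factors and 11 rises and 18 falls (median -0.09) with totals without Rn45s. In overexpression-labelled 2 the ribosomal protein median was 0.27, and 0 of 77 passed by limma-trend, 7 rose by limma-voom and 1 of 75 rose with the 5 CPM filter. Of 32 DNA replication and mitosis genes, 31 rose in overexpression-labelled 1 with a median of 3.54 (20 with no filter), and their summed normalised reads were 10915 and 11318 in wildtype, 100510 in overexpression-labelled 1 and 12864 in overexpression-labelled 2. The early B markers given above moved in the same library. Of 9 neutrophil genes 3 rose there, a share near the 26.6% over all genes tested. In overexpression-labelled 2, 9 of 9 rose, beside 0.65% of all genes. The part of cell division, neutrophil RNA and B cell stage in the differences of the 36 genes was not tested.

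Myc, the transcription factor known to drive many of these genes, had 5397 and 9248 normalised reads in wildtype, 4430 in overexpression-labelled 1 and 13516.5 in overexpression-labelled 2. The wildtype libraries differed from each other in Myc, overexpression-labelled 1 was the lowest library and overexpression-labelled 2 the highest. Its difference in overexpression-labelled 1 was -0.67 (SE 0.223, limma adjusted p = 0.0195), a call lost with recomputed size factors (adjusted p = 0.066), totals without Rn45s (0.109), no filter (0.449), a robust prior (0.345) and log2 of normalised reads plus 0.5 (0.0582). In overexpression-labelled 2 it was 0.93 (limma adjusted p = 0.0639), which passed by limma-voom (adjusted p = 0.0064). Mycn had 0 reads in 3 libraries and 2 in overexpression-labelled 2.

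Strand is not stated for the authors' counting, and 14 of the 37 genes overlap another annotated gene of the types compared, each on the opposite strand, among them Nop56 (with Idh3b), Dkc1 (with Mpp1), Bop1 (with Mroh1 and Scx), Pes1, Wdr12 (with Carf) and Gnl3 (with Pbrm1). Reads from such a pair cannot be told apart without strand, so the levels of these genes carry that uncertainty.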

How the data were processed

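RNA-seq libraries (4) were assigned by their genotype labels, 2 to each group; wildtype 2 has a misspelled genotype and was read as wildtype, and the column header of overexpression-labelled 1 differs in a digit from its title. The submitters' processing notes name STAR, HTSeq and DESeq2 with build mm10; versions, settings and annotation are not given in the sources used here. The values deposited by the authors are on a log2 scale with a floor of 4.949 for genes without reads, the form of a variance stabilizing transformation. Undoing the transformation gave reads per size factor, and 100% of values came out whole within 0.01. Totals ran from 14196665 to 20356404 reads.

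Tested genes (12617) reached 10 reads, scaled to a median-sized library, in 2 libraries or more, with a total of 15 or more. Because the files hold log2 values, limma-trend (limma 3.58.1, R 4.3.3) was run on them without a pseudocount, two-sided, with Benjamini-Hochberg adjustment over all genes and a threshold of 0.05. It was fitted as 2 groups, and as 3 levels (wildtype pair and each overexpression-labelled library) for comparisons of single libraries. Differences on this scale understate changes of genes with few reads. The fits were tested on simulated data. There, unchanged genes made up a larger share of the calls of the single-library fit than the threshold of 0.05. Calls in single libraries carry that limit. Alternatives were other scales, size factors, filters, priors, limma-voom and leaving out libraries. Values in every library are given for the gene of each role with the most reads and those with the largest and smallest difference in overexpression-labelled 1, and for the polyamine enzymes; in the other lists, for the 2 largest rises and falls that passed. Wdr12 completes a complex and was added after its values were seen. The genes, lists and this rule were chosen with earlier results of these data known. With 2 against 2 libraries an exact permutation test cannot go below p = 0.333, so none was used. Of the B lineage list, a gene is not reported here. In overexpression-labelled 2 the plasma cell, monocyte and macrophage, T and NK cell and plasmacytoid dendritic cell markers summed to 5886, 4525, 385.8 and 10384 normalised reads, and erythroid markers to 89.8 to 107 over the libraries.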

Additional observations from a re-analysis of the deposited data

How the results depend on the processing

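Leaving out 1 library at a time gave 0 to 7721 genes called between the groups, 0 to 24 of the 36 genes, and a median difference of -0.044 to 0.57; the upper values come without overexpression-labelled 2 and the lower median without overexpression-labelled 1. For overexpression-labelled 1 against wildtype the median lay between 0.49 and 0.59 when 1 wildtype library was left out; no test is then possible, since no residual degrees of freedom are left. With no filter on low values the calls in overexpression-labelled 1 fell to 2553 genes and 6 of 37, those between the overexpression-labelled libraries to 2486 genes and 3 of 37, and those in overexpression-labelled 2 to 0 genes. The cause was not tested. Genes called in overexpression-labelled 2 numbered 178 in the reported fit, 19 on log2 of normalised reads plus 0.5, 429 by limma-voom, 60 with recomputed size factors and 50 with totals without Rn45s, with 0 of the 36 in each. The median of the 36 genes was 0.67 with recomputed size factors and 0.77 with totals without Rn45s in overexpression-labelled 1 against wildtype, and 0.70 and 0.80 against overexpression-labelled 2. The scaling also moved the balance of calls over all genes in overexpression-labelled 1, with 3362 rises and 4350 falls as reported and 3914 rises and 3746 falls with totals without Rn45s. With any filter, 23 to 26 of the 36 genes were called in that library. No paired analysis was possible because the labels give no replicate numbers or pairing.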
